A study of Homo sapiens with 4 samples.

Results

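The broadest MTF-1 regions of MDA-MB-231 cells formed a set of 1251 domains of at least 8000 bp that carried peaks in control cells and in cadmium-exposed cells. The domains were defined by the measured peaks themselves. Control and cadmium peaks that shared at least 1 base were merged into sites, sites with at least 1 peak of each list were kept as shared, and shared sites of 8000 bp or more on chromosomes 1 to 22 and X were taken as broad domains. They were 1251 of 48618 shared sites (2.57%), and of 77054 sites in all. The cells, MDA-MB-231, are an established line of human breast cancer with mesenchymal features. CUT&RUN with an anti-MTF1 antibody was performed on 2 libraries of untreated control cells and on 2 libraries of cells passaged in cadmium sulfate, first at a lower dose and then at 10 µM for at least 10 passages. Both conditions share the parental line, and the exposed cells are a long-term culture rather than an acute treatment. The replicates of a condition were merged before peaks were called, so that the peak lists, 1 per condition, carry no spread between replicates and no read depth, and the values below describe the 2 lists. Because the peaks that chose the domains are also the peaks described in them, no difference in width or coverage between the lists was tested.

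MTF-1 is the zinc finger transcription factor that senses zinc and other heavy metals and turns on metallothioneins, small cysteine-rich proteins that bind zinc and cadmium. It binds metal response elements, short DNA motifs with the core TGCACNC or TGCGCNC. In CUT&RUN an antibody tethers a nuclease to the protein, and the DNA that is cut free is sequenced. The peak caller joins enriched bins of 200 bp that lie near each other, and short gaps between them can lie inside a peak. A broad domain is thus a merger of such peaks. It does not give the number or position of single binding events in it.

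The sequences below are those on which the description of the domains turns, all on the plus strand of GRCh38. The first pair shows the 250 bases before the start that GENCODE 44 gives for the metallothionein genes MT2A (chr16:56608334-56608583) and MT1X (chr16:56682220-56682469). Each metal response element core on either strand is in capitals. A position that matched on both strands was counted once.
MT2A upstream: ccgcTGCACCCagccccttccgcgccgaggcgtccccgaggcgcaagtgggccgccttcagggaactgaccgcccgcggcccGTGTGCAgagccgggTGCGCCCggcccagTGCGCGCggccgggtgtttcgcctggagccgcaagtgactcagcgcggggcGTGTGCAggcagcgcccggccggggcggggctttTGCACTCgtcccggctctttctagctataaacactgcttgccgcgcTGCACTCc
MT1X upstream: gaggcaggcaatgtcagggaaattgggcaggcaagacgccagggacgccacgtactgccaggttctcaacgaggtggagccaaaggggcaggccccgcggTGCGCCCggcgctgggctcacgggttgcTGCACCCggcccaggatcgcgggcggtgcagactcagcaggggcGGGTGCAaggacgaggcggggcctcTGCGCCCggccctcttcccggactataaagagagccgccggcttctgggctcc
The MT2A stretch held 7 cores and the MT1X stretch 4, and both stretches lay wholly inside peaks of both lists. In the 250 bases before the annotated 5′ end of all 19970 protein-coding genes, 79 genes (0.396%) had 4 or more cores. Among genes with a transcription start site in a broad domain this held for 10 of 1291 (0.775%), namely CDC34, GPI, KRT7, LRR1, MED24, MT1X, MT2A, NPDC1, OPRL1 and SMARCA4.

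AP-1, the dimer of FOS and JUN proteins that drives immediate-early and stress transcription, binds TGACTCA, or TGAGTCA on the other strand. Examples of the densest AP-1 strings in the domains are shown next, with each TGACTCA or TGAGTCA in capitals. They come from the domains that hold JUNB (chr19:12783037-12783177), EMP3, a membrane protein gene (chr19:48326103-48326209), FLNC, which encodes the actin cross-linker filamin C (chr7:128829594-128829751), and part of TRERF1 (chr6:42224643-42224733). All 4 stretches lie outside annotated exons.
JUNB domain: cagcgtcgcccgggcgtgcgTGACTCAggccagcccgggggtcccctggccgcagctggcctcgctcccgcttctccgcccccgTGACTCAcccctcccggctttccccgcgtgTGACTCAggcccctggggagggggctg
EMP3 domain: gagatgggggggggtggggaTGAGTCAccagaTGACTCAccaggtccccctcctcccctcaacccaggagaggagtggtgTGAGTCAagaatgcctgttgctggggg
FLNC domain: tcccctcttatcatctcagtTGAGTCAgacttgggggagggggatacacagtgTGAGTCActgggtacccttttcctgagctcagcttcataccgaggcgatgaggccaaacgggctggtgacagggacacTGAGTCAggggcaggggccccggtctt
TRERF1 domain: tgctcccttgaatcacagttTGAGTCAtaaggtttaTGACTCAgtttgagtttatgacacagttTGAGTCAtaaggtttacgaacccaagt
The JUNB stretch lay 8309 bp before the 5′ end of JUNB, within the annotated span of HOOK2. Such a cluster, with 3 AP-1 strings that start within 150 bases of each other, occurred in 10 of the 1251 domains (0.799%) and in 198 of the narrower shared sites (0.418%). Per megabase of site the order was the opposite, with 0.637 domains and 1.95 narrower sites. Each of the 10 stretches was wholly covered by both lists. In the TRERF1 domain the cadmium peaks covered 34.1% of the length and still held the cluster.

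Some of the domains were tandem repeats. The first 3 sequences are 120 bases from the middle of domains on chromosomes 4 (chr4:49108600-49108719), 10 (chr10:42082700-42082819) and 2 (chr2:90391500-90391619), with CATTC and its reverse complement GAATG in capitals. The fourth is 3 units of a 46-base repeat in an intron of PTPRN2 (chr7:158330178-158330315), with the middle unit in capitals.
Chromosome 4 domain: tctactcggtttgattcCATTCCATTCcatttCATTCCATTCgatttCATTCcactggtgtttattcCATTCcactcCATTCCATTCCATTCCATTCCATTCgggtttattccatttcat
Chromosome 10 domain: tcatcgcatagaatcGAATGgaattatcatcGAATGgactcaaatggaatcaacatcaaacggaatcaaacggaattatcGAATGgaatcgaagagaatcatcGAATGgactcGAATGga
Chromosome 2 domain: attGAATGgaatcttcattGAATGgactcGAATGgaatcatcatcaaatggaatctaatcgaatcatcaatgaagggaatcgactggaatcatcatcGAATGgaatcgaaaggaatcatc
PTPRN2 domain: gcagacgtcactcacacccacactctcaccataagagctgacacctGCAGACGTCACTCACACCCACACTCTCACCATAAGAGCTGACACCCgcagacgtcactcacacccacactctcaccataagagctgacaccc
The first unit of the PTPRN2 repeat matched the second at 45 of 46 bases, and the second matched the third at all 46. These domains are described further with the domains that hold no gene start.

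The domains were few but long. Their median width was 10599 bp (quartiles 8999 and 13799 bp), against 1799 bp over all shared sites, and they made up 15.7 Mb of the 117 Mb in shared sites (13.4%). Of the 1251 domains, 715 reached 10000 bp, 237 reached 15000 bp, 104 reached 20000 bp and 25 reached 30000 bp. The widest measured 67199 bp. At the lower end 80 domains had the smallest width that passed, 8199 bp, and 75 shared sites measured 7999 bp and stayed out. The first of those inside by position hold LAPTM5, ZC3H12A and SLC2A1, and the first of those outside hold lncRNA starts in one case, LEPR and LEPROT in the next, and MFSD14A in the other. Control peaks covered 51.2 to 80.5% and cadmium peaks 95.1 to 100% of these 3 domains, and 77.5 to 87.5% and 52.5 to 87.5% of the 3 sites outside. EGR1, an immediate-early transcription factor, also lay in a site of 7999 bp.

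Control peaks filled most of the domains and cadmium peaks filled a smaller part of their length. Control peaks covered 14.4 Mb (91.5% of the bases) and cadmium peaks 11.7 Mb (74.4%). The median domain was covered to 96.5% by control peaks (quartiles 87.8% and 100%) and to 76.9% by cadmium peaks (quartiles 60.3% and 90.4%). Both lists covered 65.9% of the bases, control peaks alone 25.6% and cadmium peaks alone 8.49%. In narrower shared sites control peaks covered 90.3% of the bases and cadmium peaks 70.7%. The ratio of control to cadmium bases was thus 1.23 in the domains, 1.28 in the narrower shared sites and 1.43 over the whole lists, where control peaks covered 130.4 Mb and cadmium peaks 90.9 Mb. As a share of each list, the domains held 11.02% of the bases of control peaks and 12.9% of the bases of cadmium peaks.

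Control peaks covered more of the domain in 924 cases (73.9%), cadmium peaks covered more in 306 (24.5%), and 21 were covered equally. This order rests on how domains are chosen. Where a site had to hold 1 unbroken cadmium peak of at least 8000 bp, control covered more in 46.2%, and where it had to hold 1 unbroken control peak of that width, in 86.9%. In narrower shared sites the shares were 57.5%, 23.7% and 18.8% for equal coverage. A single control peak made up the control side of 876 domains (70.0%), and a single cadmium peak made up the cadmium side of 622 (49.7%). The control peaks filled 531 domains from edge to edge, the cadmium peaks 129. Under 50% of the bases lay in control peaks in 23 domains and in cadmium peaks in 204. A domain filled by 1 list, in which the other list covers under 8000 bp, reached the minimum width only through the list that fills it.

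**Figure D1:**
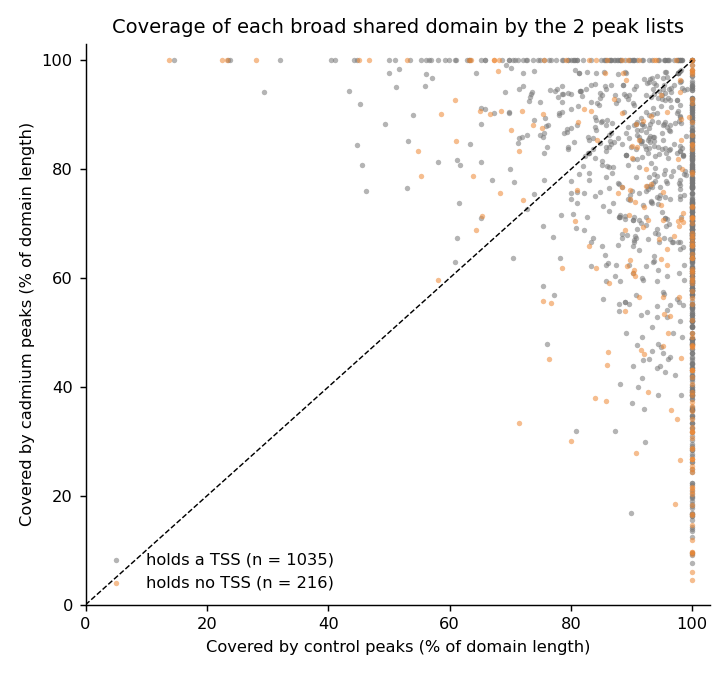
Each point is 1 of the 1251 broad domains, with the percent of its length covered by control peaks on the x axis and by cadmium peaks on the y axis; domains without a transcription start site (TSS) are in orange and the dashed line marks equal coverage. Most points lie along the right edge and below the line, and 306 lie above it.

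The domains differed in how the peaks of the 2 lists were broken. In 433 domains 1 control peak met 1 cadmium peak. In 443 domains 1 control peak spanned several cadmium peaks, in 189 several control peaks lay under 1 cadmium peak, and in 186 both lists were broken. Inside the domains there were 866 gaps between cadmium peaks, with a median length of 1201 bp, and 467 gaps between control peaks, with a median of 1001 bp. Shorter gaps that the caller bridged are not counted. Control peaks reached both edges of 703 domains and cadmium peaks both edges of 237.

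The map of 7 domains shows these forms. At FOSL1, a FOS family gene, 1 control peak of 21199 bp lay over 1 cadmium peak of 20599 bp. At SMAD3, which carries TGF-beta signals, 2 control peaks stood against 4 cadmium peaks. At CDK5, a kinase gene, the 53999 bp domain was covered to 95.2% by 2 control peaks and to 57.4% by 5 cadmium peaks. At MT2A and HSP90AA1, which encodes the heat shock protein HSP90-alpha, the pattern was the other way round, with a single cadmium peak over the whole domain and 2 control peaks at MT2A and 4 at HSP90AA1.

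**Figure D2:**
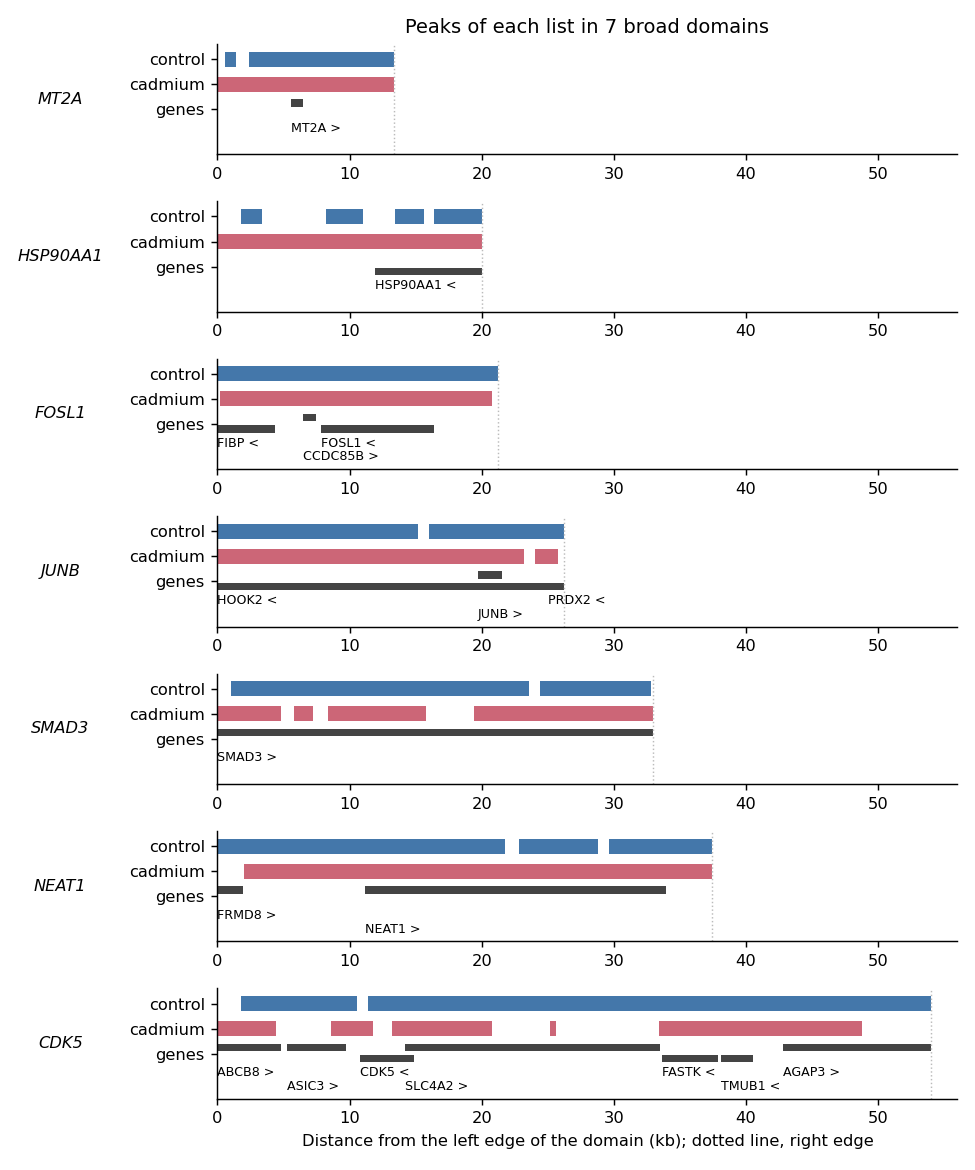
Peaks of the control list (blue) and of the cadmium list (red) and protein-coding genes or NEAT1 (black; upper bars on the plus strand, lower bars on the minus strand, arrowheads give the direction) in 7 broad domains, against the distance from the left edge of the domain in kb. The cadmium bar is unbroken at MT2A and HSP90AA1 and is broken into 5 at CDK5.

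Most domains lay over gene starts. Of the 1251 domains, 1035 (82.7%, 95% Wilson interval 80.5 to 84.7%, for counting error only) held at least 1 transcription start site (TSS) of GENCODE 44, with a median of 5 and at most 72 distinct positions, and 9385 of the 218307 annotated positions (4.30%) fell in a domain. A wide site meets more starts by its length alone. Among shared sites under 1000 bp 9.27% held a TSS, and the share rose with each width class to 87.5% at 20000 bp and more. Per kb, the domains held 0.598 TSS positions and the narrower shared sites 0.827, with the highest density in sites of 2000 to 4000 bp (0.966) and the lowest in sites under 1000 bp (0.412).

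Protein-coding genes accounted for most of these starts. A protein-coding TSS lay in 924 domains, of which 628 held 1 such gene, 198 held 2, 63 held 3 and 35 held 4 or more. In all, 1291 of 19970 protein-coding genes (6.46%) had a TSS in a broad domain, against 13823 (69.2%) in any shared site. These shares are the background for the gene lists below. For counts of genes covered more by control, the background is the 73.9% of all domains. The domains also held starts of 593 of 18756 lncRNA genes (3.16%), 65 of 939 snoRNA genes (6.92%), 92 of 1877 miRNA genes (4.90%) and 16 of 10007 processed pseudogenes (0.160%). A total of 365 protein-coding genes lay wholly inside a domain. Genes took up 72.7% of the bases of the domains and exons 22.9%, against 58.4% and 5.14% of the genome.

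Around single genes the domains reached further into the gene than before it. Of the 628 domains with 1 protein-coding gene, 443 held that gene's 5′ end. This is the outermost annotated start, so a domain that spans later starts of the gene counts as reaching downstream. Domains that reach the start of another protein-coding gene are left out. The 443 domains extended a median of 3397 bp upstream and 6892 bp downstream of the 5′ end, and 332 (74.9%) extended further downstream. At the 5′ end itself control peaks covered 99.3% of these domains and cadmium peaks 96.4%. At 5 kb into the gene the shares were 65.9% and 54.6%, and at 5 kb upstream 24.8% and 19.6%. Both lists gave the same lopsided shape, with higher coverage by control peaks over most of the range.

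**Figure D3:**
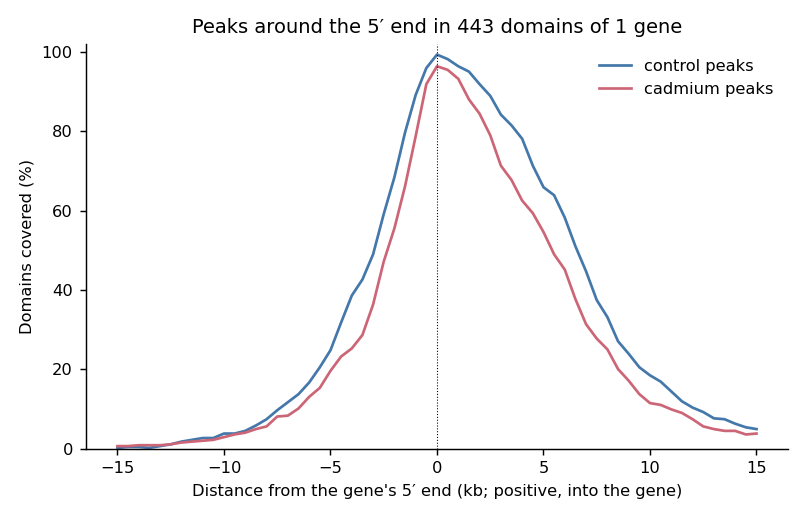
The percent of the 443 domains with 1 protein-coding gene and its 5′ end that were covered by control peaks (blue) or cadmium peaks (red), against the distance from the 5′ end in kb, positive into the gene. Both curves peak at the 5′ end, at 99.3% and 96.4%, and fall more slowly into the gene than upstream.

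The stretches covered by both lists held most of the gene starts. Sequence covered by both lists made up 65.9% of the domain length and held 88.7% of the TSS positions (0.805 per kb). Sequence covered by control peaks alone held 0.192 TSS positions per kb and sequence covered by cadmium peaks alone 0.214 per kb. AP-1 strings were also denser where the lists overlapped, with 0.245 per kb, against 0.109 per kb in each kind of stretch covered by 1 list. The metal response element core was about as dense in all of them, at 1.29 per kb under both lists, 1.29 under control alone and 1.35 under cadmium alone. Forkhead strings, which are GTAAACA or GTAAATA or the same with A in place of the first G, stood at 0.468 per kb under both lists, 0.678 under control peaks alone and 0.481 under cadmium peaks alone. GC content was 56.2%, 51.8% and 55.2% in the same order.

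Metallothioneins and other genes of the metal response were in broad domains about as often as protein-coding genes in general. Of 21 such genes 2 had a TSS in a domain (9.52%, beside 6.46% of all protein-coding genes), while 15 had one in a shared site. MT2A lay alone in a domain of 13399 bp (chr16:56603001-56616399), covered to 88.1% by 2 control peaks and to 100% by 1 cadmium peak. MT1X lay in a domain of 8199 bp (chr16:56678601-56686799), covered to 65.8% by 1 control peak and to 100% by 1 cadmium peak. MT1X passed the minimum width only through its cadmium peak, so that its full cadmium coverage follows from the choice of domains. At MT2A the cadmium peak set the left edge, and 1 control peak of 10999 bp reached the same right edge. MT2A would thus pass the minimum width with either list. Over the 15 genes with a shared site, control covered more in 7 and cadmium in 8. MT1E and MT1F lay in shared sites of 6399 bp each, covered to 68.7% and 81.2% by control peaks and to 100% and 56.2% by cadmium peaks. MTF1 itself lay in a site of 2599 bp, the zinc exporter gene SLC30A1 in one of 3799 bp and HMOX1, heme oxygenase, in one of 1999 bp. MT1B, MT1G, MT1H, MT1M, MT4 and SLC30A10 had no TSS in a shared site. The metallothionein genes are close copies of each other, and how reads that match several copies were placed is not given in the sources used here.

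AP-1 genes were frequent in the domains. Of 16 AP-1 family genes 10 had a TSS in a domain (62.5%): the FOS genes FOS, FOSB, FOSL1 and FOSL2, the JUN genes JUN, JUNB and JUND, ATF3, and the small MAF genes MAFG and MAFK, whose proteins also pair with NRF2. All FOS and JUN genes of the list were thus in domains. JUNB had the widest, 26199 bp, which also held a start of HOOK2 and was covered to 96.9% by control and to 95.4% by cadmium peaks. The domains of FOSB, FOSL1, JUND and MAFG likewise held starts of other protein-coding genes. FOS had a domain of 11199 bp, covered to 94.6% and 76.8%. JUN had one of 8799 bp, covered to 79.5% by control and to 100% by cadmium peaks. The control peak at JUN measured 6999 bp, so that JUN passed the minimum width only through its cadmium peak, and the full cadmium coverage follows from that. ATF3, with a control peak of 7999 bp, likewise passed only with its cadmium peak. Over the 10 genes the median coverage was 95.3% by control and 90.5% by cadmium peaks, control covered more in 6 and cadmium in 4. The members outside included BATF, which had no shared site, and BATF2, BATF3, MAF and MAFF, in sites of 1199 to 6199 bp.

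Immediate-early and stress genes, which are induced within minutes by growth factors or damage, had a TSS in a domain in 15 of 25 cases (60%), and all 25 had a TSS in a shared site. In the domains were the transcription factors KLF4, KLF6, KLF10 and CEBPB, the phosphatases DUSP1, DUSP5 and DUSP6, which switch off MAP kinases, the mRNA decay factors ZFP36, ZFP36L1 and ZFP36L2, and IER2, IER3, IER5, GADD45B and MCL1, an anti-apoptotic BCL2 relative. DUSP5 and IER2 had the widest domains, 24999 bp each. DUSP1 lay in 16399 bp, covered to 100% by 1 control peak and to 76.8% by 3 cadmium peaks. KLF6 lay in 15399 bp, covered to 90.9% by control and to 100% by cadmium peaks. Control covered more in 11 of the 15, cadmium in 3, and ZFP36L2 was filled by both. Over all domains control covered more in 73.9%, so that this tally is not particular to these genes. At IER5, KLF4 and KLF10 cadmium peaks covered under 8000 bp, so that these domains reached the minimum width only with their control peaks. EGR2 lay in a site of 2799 bp and EGR3 in one of 5199 bp, each filled by cadmium peaks.

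Of 11 heat shock genes, which encode chaperones, 4 lay in domains (36.4%), and all 11 had a shared site. HSP90AA1 had a domain of 19999 bp (chr14:102068801-102088799), covered to 51.0% by 4 control peaks and to 100% by 1 cadmium peak. HSPA1B, an inducible HSP70 gene, had one of 10799 bp, covered to 59.2% by 2 control peaks and to 100% by 1 cadmium peak. DNAJB1, an HSP70 cochaperone gene, stood at 92.3% and 93.6%, and HSPA8, the constitutive HSP70 gene, at 100% and 98.1%. Cadmium thus covered more in 3 of the 4, with a wide gap in HSP90AA1 and HSPA1B and a small one in DNAJB1. HSP90AA1 and HSPA1B reached the minimum width through their cadmium peaks (the longest control peak at HSP90AA1 measured 3599 bp), so their coverage follows from how the domains were chosen. Over all 11 genes and their widest shared sites, control covered more in 6 and cadmium in 5. HSPA1A, the near-identical neighbor of HSPA1B, lay in a separate site of 2199 bp, and reads that match both genes could have been placed at either.

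Genes of the Hippo pathway and its effectors YAP and TEAD were in domains in 7 of 13 cases (53.8%). These were the transcription factors TEAD1 and TEAD3, the targets ANKRD1, AXL, AMOTL2 and CCN1, and AJUBA, an adaptor protein gene. With 1 unbroken cadmium peak of at least 8000 bp required, the count was 3. Control peaks covered more in 6 of the 7, and AJUBA was filled by both. At ANKRD1 control peaks covered 100% and cadmium peaks 57.8%, and the domain reached the minimum width only through its control peak. The domains at TEAD1 (8399 bp, 100% and 71.4%) and at TEAD3 (11399 bp, 100% and 66.7%) also reached it only through their control peaks. YAP1 itself lay in a site of 5999 bp and CCN2 in one of 6199 bp. Of 15 TGF-beta genes 5 (33.3%) lay in domains, with the ligands TGFB1 and TGFB2, the signal carrier SMAD3 and the inhibitors SKI and SMURF2. Control covered more in 4 of them, among them TGFB1 at 91.8% against 49.2% and TGFB2 at 100% against 59.5%, and SMURF2 was at 97.6% and 100%. At TGFB1, TGFB2 and SKI (100% and 70.6%) cadmium peaks covered under 8000 bp, so that these domains reached the minimum width only with their control peaks. Their higher coverage by control thus depends on how the domains were chosen.

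Ribosomal protein genes, which growing cells transcribe steadily and at high levels, were also frequent in the domains. Of 81 genes that the symbol pattern took, 23 (28.4%) lay in 21 domains, and 80 had a shared site. With 1 unbroken cadmium peak of at least 8000 bp required, the count was 11. One of the 23, RPL3L, is a muscle paralog that shares its domain with RPS2. Median coverage over the 23 was 96.4% by control and 80.3% by cadmium peaks, and control covered more in 19. The range for cadmium was wide, from 38.4% at RPL23 and 42.8% at RPS29 to 100% at RPL3 and RPS2. Among the domains covered more by control, those of RPL13, RPL23, RPL36, RPLP0 and RPS29 reached the minimum width only with their control peaks.

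Other lists lay closer to the background or below it. Of 52 forkhead genes 6 had a TSS in a domain (11.5%), namely FOXA2, FOXH1, FOXK2, FOXO3, FOXP1 and FOXS1, with FOXA2 at 100% by control and 37.9% by cadmium peaks. The FOXA2 domain reached the minimum width only through its control peak. Of 19 cytokine and NF-κB genes 2 did (10.5%), IL11 and NFKBIA, the inhibitor of NF-κB. The zinc finger genes of chromosome 19 gave 8 of 240 (3.33%), although 210 (87.5%) had a TSS in a shared site. None of 69 replication-dependent histone genes, 39 HOX genes and 400 olfactory receptor genes lay in a domain, while 38, 8 and 1 of them had a shared site. The nuclear lncRNAs NEAT1 and MALAT1 both did, in domains of 37399 and 15799 bp.

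The label of the line was checked against marker genes, as far as MTF-1 peaks can show it. Of 21 mesenchymal and basal-like markers 16 had a TSS in a shared site (76.2%) and 3 in a domain, VIM, CAV1 and SNAI1. Of 14 luminal markers 8 did (57.1%), with KRT8 and KRT18 in domains. The share in domains was 14.3% for either list. The luminal genes ESR1, PGR, GATA3, TFF1 and CDH1, the basal keratins KRT5, KRT14 and KRT17 and the mesenchymal TWIST1 and TWIST2 had no TSS in a shared site, while the luminal FOXA1, XBP1, SPDEF, ERBB2, KRT19 and EPCAM had one. At SNAI1, a repressor of epithelial genes, control peaks covered 63.0% and cadmium peaks 100%, and the domain reached the minimum width only through its cadmium peak.

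**Figure D4:**
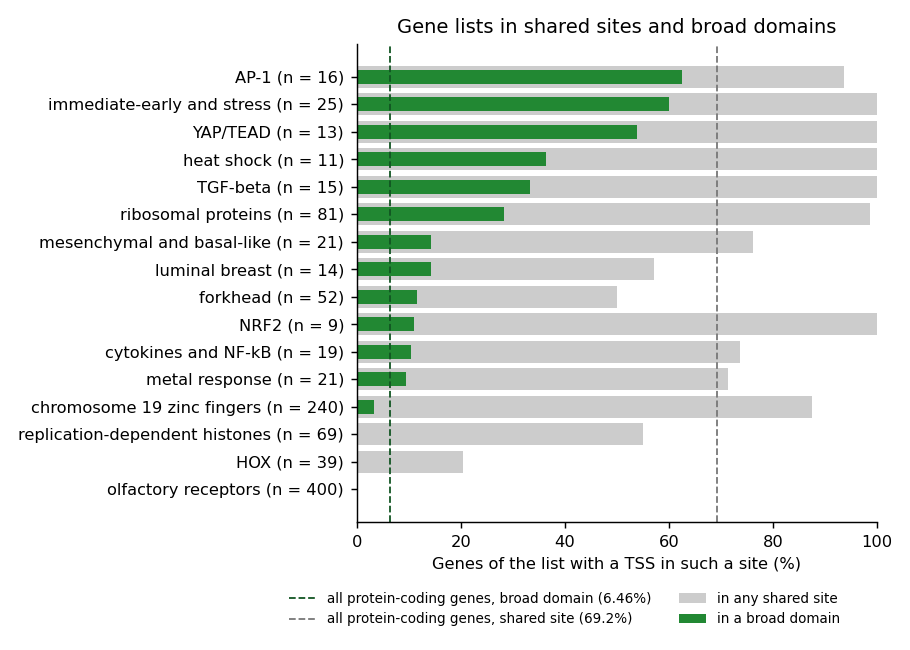
The percent of genes of each list with a TSS in any shared site (gray bars) or in a broad domain (green bars), with n the genes of the list and dashed lines at 69.2% and 6.46%, the same shares over all protein-coding genes. AP-1, immediate-early and YAP/TEAD genes reach 62.5%, 60% and 53.8% in domains, and histone, HOX and olfactory receptor genes 0.

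Some domains spanned clusters of genes. The domain with the most protein-coding genes, 9, covered chr9:137215001-137257199 around TUBB4B, a beta tubulin gene, and NELFB, a subunit of the complex that pauses RNA polymerase II, and was covered to 89.1% by control and to 97.6% by cadmium peaks. The domain at chr7:151043001-151096999 held 7, with CDK5, the anion exchanger SLC4A2, FASTK, TMUB1, ASIC3 and AGAP3. The domain at chr11:801801-848999 held 7 with 72 TSS positions, among them RPLP2, CD151, a tetraspanin, POLR2L, a shared RNA polymerase subunit, and PNPLA2, a triglyceride lipase, and 1 control peak spanned its 47199 bp while cadmium gave 6 peaks (86.0%). The domain at chr11:64229401-64255399 also held 7, with VEGFB, PLCB3, FKBP2 and DNAJC4, and both lists covered 95.4% of it. The domain at chr19:1235601-1297399 held 6 and was the widest with a gene, 61799 bp, around CIRBP, a cold-inducible RNA-binding protein, MIDN, EFNA2 and ATP5F1D. It held 122 metal response element cores (1.97 per kb), against 1.29 per kb over all domains.

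Of the 20 widest domains 3 held no TSS and the others lay over genes of several kinds. LINC-PINT and LINC00513, lncRNAs, shared 42599 bp on chromosome 7, filled by 1 control peak and covered to 83.6% by 3 cadmium peaks. LAMA5, a laminin chain, lay in 40799 bp, FLNA, filamin A, with EMD, emerin, in 34799 bp, PLEC, the cytolinker plectin, in 32999 bp, and SMAD3 in 32999 bp. BAHCC1, COL9A3 with OGFR and MRGBP, SEMA3B with GNAI2, DNAJC5 with TPD52L2, CHRNA4, RTEL1 with TNFRSF6B, and MNT with SGSM2 held the others not yet named. Cadmium covered more in CHRNA4 (95.3% against 72.2%) and RTEL1 (100% against 87.0%), and control more in MNT (100% against 81.4%).

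Several genes carried more than 1 domain. There were 188 protein-coding genes touched by at least 2 domains and 21 by at least 3. PRKAG2, a regulatory subunit of the energy sensor AMPK, had 5 domains that summed to 63.6 kb, covered to 93.7% by control and to 52.8% by cadmium peaks. ARAP1 had 4, covered to 94.8% and 47.4%, and BAIAP2 had 4, covered to 83.6% and 70.1%. SMAD3, PLEC, LAMA5, the BCL2 relative BCL2L1, the kinase STK11, the actinin ACTN4 and TEAD3 were among those with 3. ACTN4 was covered a little more by cadmium peaks (89.0%) than by control peaks (85.5%). In all 4 ARAP1 domains cadmium peaks covered under 8000 bp, so that these reached the minimum width only with their control peaks. Which list covers more of these genes thus depends on how the domains were chosen.

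The domains were gathered on a few chromosomes and near chromosome ends. Chromosomes 11, 17, 19 and 20 held 541 of the domains (43.2%), against 17.5% of the narrower shared sites. On chromosome 20 8.43% of the shared sites were broad domains, on chromosome 19 6.76%, on chromosomes 17 and 11 5.08% and 5.07%, and on chromosomes 2, 13 and 18 0.546%, 0.545% and 0.263%. Chromosome 19 had the most per megabase, 2.70. Within 5 Mb of a chromosome end lay 424 domains (33.9%), against 11.3% of the narrower shared sites and 7.59% of the genome, and without chromosome 20 the share was 31.9%. The last 2.44 Mb of chromosome 20 held 61 domains, which took up 42.4% of that stretch, while 0.518% of the genome lay in domains. The copy number of these regions in the cells was not analysed here, and its part in the counts was not tested.

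**Figure D5:**
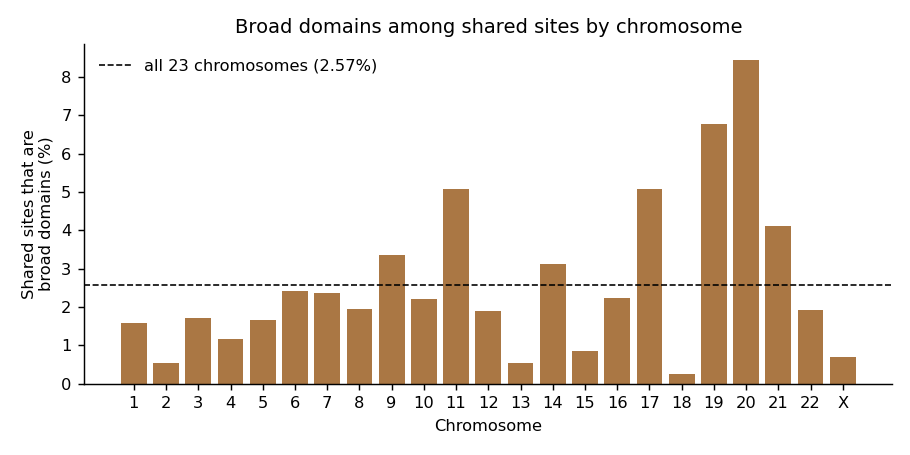
The percent of the shared sites of each chromosome that were broad domains, with a dashed line at 2.57%, the percent over all 23 chromosomes. Chromosomes 20, 19, 17 and 11 stand above 5%, and chromosomes 2, 13, 15, 18 and X below 1%.

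Wider sites were richer in GC and poorer in AP-1 and forkhead strings. Median GC content was 44.7% in shared sites under 1000 bp and 57.8% in domains of 20000 bp and more. From the narrowest to the widest class AP-1 strings fell from 0.867 to 0.157 per kb and forkhead strings from 0.898 to 0.450 per kb, and metal response element cores went from 0.755 to 1.42 per kb. Across all domains an AP-1 string was present in 85.7%, a metal response element core in 99.6% and a forkhead string in 95.4%, against 53.1%, 70.4% and 63.6% of narrower shared sites, which are shorter. In the 250 bases before protein-coding genes the core was found for 27.7% of all genes. The share was 32.9% for genes with a TSS in a domain, 30.6% for those in narrower shared sites alone and 20.6% for those in none. Median GC contents of the windows were 66.4%, 62% and 51.2% in this order, and 59.6% over all genes. The windows lie before the annotated 5′ end, which was itself in a domain for 1073 of the 1291 genes. AP-1 strings were in 3.796%, 2.992% and 4.051% of these windows, and 3.370% over all genes. Forkhead strings were in 5.42%, 8.18% and 16.7%, and 10.6% over all genes. The core is GC-rich and the forkhead strings are AT-rich, and the part of base composition in these shares was not tested.

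The 216 domains without a TSS overlapped a gene in 126 cases and none in 90. Their median width was 9999 bp, and 87 of them were over 10 kb from the nearest TSS. Control peaks covered a median of 95.8% and cadmium peaks 70.2%, against 96.8% and 78.0% in domains with a TSS. AP-1 strings had a median of 0.221 per kb in them, against 0.183 in domains with a TSS. Leaving out sequence of which over 10% of the 20-base words recur in the same domain, the widest were at SLC17A9 (25799 bp, 75.2% by control and 87.6% by cadmium peaks), at BAG3, a cochaperone gene (21199 bp, 81.1% and 88.7%, 7 AP-1 strings), over the 3′ end of PLEC (20399 bp, 100% and 61.8%) and at LSM4 (19599 bp, 91.8% and 88.8%). An intronic domain of ZMIZ1 of 17799 bp was 78070 bp from the nearest TSS and had almost equal coverage, 84.3% and 85.4%.

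Repeats made up some of the domains without a TSS. In 18 domains over 50% of the 20-base words recurred in the same domain, against a median of 0.770% over all domains. In 14 of these, CATTC or GAATG took up 20.3 to 50.6% of the bases, against 1.26% over the domains that were not repeated. They summed to 258.6 kb, lay on chromosomes 1, 2, 4, 10, 16 and 20, held no TSS and had GC contents of 35.9 to 41.1%. The best match of the sequence to itself was at a shift of 5 bases in 6, of 26 bases in 6 and of 49 bases in 2. Control peaks covered 91.3 to 100% of each, and cadmium peaks 26.5 to 100% with a median of 89.6%. The largest, chr10:41855401-41916399, measured 60999 bp and was covered to 98.0% by control and to 96.4% by cadmium peaks. The widest domain of all, chr12:34339601-34406799, was less repeated (15.4%), lay 90120 bp from the nearest TSS and was covered to 95.8% and 90.5%. How reads with many matches were placed in such sequence is not given in the sources used here, and the number of copies in the cells can differ from that in the reference.

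The other 4 repeated domains lay at MUC4, PTPRN2, LINC01667 and PLCXD1, and in all 4 cadmium peaks covered 100%. At MUC4, a mucin whose coding sequence is itself a tandem repeat, control peaks covered 23.8% of 16799 bp, at PTPRN2 28.1% of 12799 bp, at PLCXD1 14.6% of 8199 bp and at LINC01667 83.3% of 8399 bp. Each of the 4 reached the minimum width only through its cadmium peaks, so that the full cadmium coverage follows from the choice of domains. The PTPRN2 stretch shown above lay in the cadmium peak and in no control peak. The opposite held for the chromosome 10 stretch, which lay in a control peak and in a gap between cadmium peaks.

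Among the extremes of the difference between the lists, only PLCXD1 was one of these repeated domains. The domains in which cadmium covered most above control were a pair without a gene on chromosome 19, chr19:20899801-20915799 (13.7% by control and 100% by cadmium peaks) and chr19:20871601-20892999 (22.4% and 100%), PLCXD1, a domain in ANKS1A (23.2% and 100%), and GATA6, a transcription factor of endoderm and heart (chr18:22165201-22175399, 23.5% and 100%). The chromosome 19 pair was repeated to 25.7% and 23.6%, the ANKS1A domain to 0% and the GATA6 domain to 0.118%. At the other end, 1 control peak filled each of the 5 domains and a single narrow cadmium peak lay in it. These were in ARHGEF17 (8799 bp with a cadmium peak of 399 bp), at a lncRNA on chromosome 8 (599 bp of 9799), at DPYSL4 (799 bp of 10399), on chromosome 6 near MIR4462 (1199 bp of 12999) and in CPNE5 (1199 bp of 12799). The repeated share of these 5 was between 0.182% and 2.10%. Each domain at either extreme reached the minimum width only through the list that filled it, so that this full coverage follows from the choice of domains.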

How the data were processed

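CUT&RUN for MTF-1 was measured in 2 libraries each of control and cadmium-exposed MDA-MB-231 cells. The authors removed adaptors, mapped the reads with Bowtie2 (hg38), combined replicates with SAMtools 1.8 and then ran Epic2 at its default settings to find peaks. The submitters' processing notes list the caller as SICER 0.0.50. No control library is named. The deposited lists hold the start and end of 69299 control and 60130 cadmium peaks with no count, signal or score, so depth and replicate spread are unknown from them. Reads and coverage tracks were not used here. A width is the end minus the start and is 1 less than a multiple of 200 bp. An unequal depth of the 2 merged libraries would change how far peaks extend and could not be corrected.

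Peaks sharing at least 1 base were merged, and coverage, GENCODE 44 transcript starts and motif strings on both strands were counted in each site with Python 3.11.15 and pysam 0.24.0 (samtools 1.23.1). A gene was counted in a domain where any of its transcripts starts there. Repeats were measured as the share of 20-base words that recur in the same domain. Intervals are Wilson 95% intervals from scipy 1.17.1. The merging and counting were checked on simulated peaks.

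The members and gene lists were chosen with earlier results of these data known. Domains named are the 20 widest, the 5 largest and 5 smallest differences in coverage, the 5 with most protein-coding genes, the 5 widest without a TSS and 3 on either side of the minimum width. Genes named are those with a TSS in these domains and list members in domains, apart from a few that are not reported here. Repeats, AP-1 clusters, genes with several domains, genes rich in metal response elements and the 7 domains drawn were named after their values were seen. No test was made, because the peaks that chose the domains are the measurement.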

Additional observations from a re-analysis of the deposited data

How the results depend on the processing

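The counts and shares depend on the width that counts as broad and on how a site is built. With a minimum of 6000 bp there were 2579 domains with 2210 protein-coding genes, 77.2% held a TSS, and the median coverage was 98.2% by control and 74.2% by cadmium peaks. With 10000 bp there were 715 domains with 841 genes, and 85.2% held a TSS. Where each list had to cover at least 50% of the domain, 85.4% held a TSS, the medians were 95.3% and 81.7%, and control covered more in 70.3%. With peaks up to 1000 bp apart joined, the medians were 90.8% and 70.7%, and control covered more in 76.6%. An unbroken control peak of the minimum width gave medians of 100% and 72.1% and control more in 86.9%. An unbroken cadmium peak of that width gave 487 domains with 619 genes, 87.5% with a TSS, medians of 92.5% and 93.2% and control more in 46.2%, so that which list covers more depends on which list must be unbroken. The share of domains with a TSS was 71.9% with 1 TSS per gene, 73.9% with TSSs of protein-coding genes only and 76.8% with the basic transcript set. In the unbroken cadmium set YAP/TEAD genes in domains fell to 3 and ribosomal protein genes to 11, while the count of AP-1 genes was again 10. The share of domains within 5 Mb of a chromosome end ranged from 29.2% to 38.4% over all settings. Counting the last base of each bin, keeping sites of 1 list, and using peaks of at least 1000 bp changed none of these values beyond the interval of the main value, or 1.5 times for counts. The same held for 2 settings chosen after seeing the data, leaving out the 18 repeated domains and leaving out chromosome 20. Leaving out domains by their soft-masked share was not run, because the genome copy used here is not masked. No paired analysis was possible because the peak lists used here were called on merged replicates, and for the same reason no replicate could be left out. Read depth and signal were not analysed here, and from the peak lists alone a gap in a peak cannot be told apart from a lack of reads.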
